A study of Mus musculus with 112 samples.

Results

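The comparison described here is that of prefrontal cortex with amygdala in mice that had received no drug. Its members were the 10 prefrontal cortex arrays and 9 amygdala arrays of the saline group, 19 of the 112 arrays of the series, picked by the tissue and treatment in their labels. All were from male C57BL/6J mice, an inbred laboratory strain, given saline by mouth at 9 am on each of 8 days. The labels give neither the age of the mice nor the way the regions were dissected. Every array measured the RNA of a whole piece of tissue, in which fewer cells of a type and less RNA per cell cannot be told apart. The number in an array's title was taken as the mouse, so that 9 mice had both regions and mouse 3 had prefrontal cortex only. The rest of the series comprised liver and the same tissues after the agonists fenofibrate (150 mg/kg), tesaglitazar (1.5 mg/kg) and bezafibrate (75 mg/kg) of the peroxisome proliferator-activated receptors (PPARs), from which 28 prefrontal cortex and 28 amygdala arrays serve here as a second set of mice.

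The prefrontal cortex is the layered front part of the neocortex, built mainly of glutamatergic projection neurons with a minority of GABAergic interneurons, and is known for its part in planning, decisions and the control of emotion. The amygdala is a group of nuclei deep in the temporal lobe that links stimuli with fear and reward. Its basolateral nuclei resemble cortex in their neurons, whereas its central and medial nuclei are mostly GABAergic, arise from the embryonic subpallium and are rich in neuropeptides.

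Levels are given as log2 of the background-corrected and quantile-normalised probe intensity, on which a step of 1 is a doubling. A difference is prefrontal cortex minus amygdala, with its standard error (SE), and was called where the adjusted p of limma's moderated test was below 0.05. The share of the 45281 probes above background was 44.0 to 48.8% on the prefrontal cortex arrays, against 47.2 to 50.4% on those of amygdala. It averaged 47.3% ± 1.33 (SD, n = 10) in prefrontal cortex and 48.99% ± 1.03 (SD, n = 9) in amygdala, a gap of -1.68 percentage points (exact two-sided permutation test over 92378 assignments, p = 0.00367) that was present in 8 of the 9 mice with both regions. That test ignored the pairing, and within the 9 mice the mean gap was -1.71 percentage points (exact sign-flip test, p = 0.0117). Mean raw intensity per array was 245 to 370 on the prefrontal cortex arrays, against 345 to 426 on those of amygdala. The part of these 2 shifts in the results below was not tested, beyond the alternative scaling given with the counts. The median correlation between arrays across probes was 0.990 within prefrontal cortex, 0.988 within amygdala and 0.972 between the regions.

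Within the 2 regions, 4 arrays stood apart from their group in single genes, and were picked out after the data were seen. Several of these genes were among those furthest apart between the regions. On the prefrontal cortex array of mouse 2, C1ql2, which encodes a secreted synaptic protein known from the granule cells of the hippocampus, read 9.54, while the other 9 prefrontal cortex arrays lay between 4.89 and 5.82. Spink8, a gene of a peptidase inhibitor known from hippocampal pyramidal cells, read 8.81 on that array, against at most 6.25 on the others. Both values fell within the range of the amygdala arrays.

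The prefrontal cortex array of mouse 4, and less so that of mouse 3, carried genes known from the olfactory bulb, which were chosen after their values were seen. Omp, the olfactory marker protein, read 7.43 for mouse 4 and 5.42 for mouse 3, against 4.39 to 5.05 on the other prefrontal cortex arrays and 4.52 to 4.87 on the amygdala arrays. Cdhr1, a cadherin of mitral cells, read 10.39 and 8.57 on the same arrays, against 5.49 to 7.55 on the other prefrontal cortex arrays and 6.75 to 7.74 in amygdala. Doc2g (7.75 and 6.09), Th, the rate-limiting enzyme of dopamine synthesis (6.89 and 5.76), and Scgn, a calcium-binding protein (7.47 and 5.74), were likewise highest for mouse 4 among the prefrontal cortex arrays, with mouse 3 next. Over both regions as groups Omp, Cdhr1, Doc2g and Scgn did not pass the test, although Scgn did without the prefrontal cortex array of mouse 4 (-0.40, adjusted p = 0.0493, against -0.12 with it), and Th passed (0.59) but no longer did with the mouse as a replicate block (adjusted p = 0.0757).

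In the amygdala, the array of mouse 25 was low in genes that differed between the regions in either direction. Cartpt, lower in prefrontal cortex, read 6.70 there and 8.93 to 9.81 on the other 8 arrays. Cckbr, higher in prefrontal cortex, read 8.13 there and 9.66 to 10.67 on the others. The amygdala array of mouse 2 was high in genes of prefrontal cortex, with Trbv13-2 at 7.45 against 4.31 to 4.76 on the other 8. On an axis drawn from the agonist-treated mice, with their amygdala mean at 0 and their prefrontal cortex mean at 1, the saline prefrontal cortex arrays lay between 0.823 (mouse 4) and 1.06. The saline amygdala arrays lay between -0.00214 and 0.157 (mouse 2). The regions were therefore far apart on every array, and lists whose counts or medians moved most without these 4 arrays are given with and without them. The prefrontal cortex array of mouse 3, at 0.838 on the axis, stayed in that setting. Testing there still required a probe above background on at least 9 arrays, so that some genes seen almost only in amygdala were no longer tested.

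**Figure D1:**
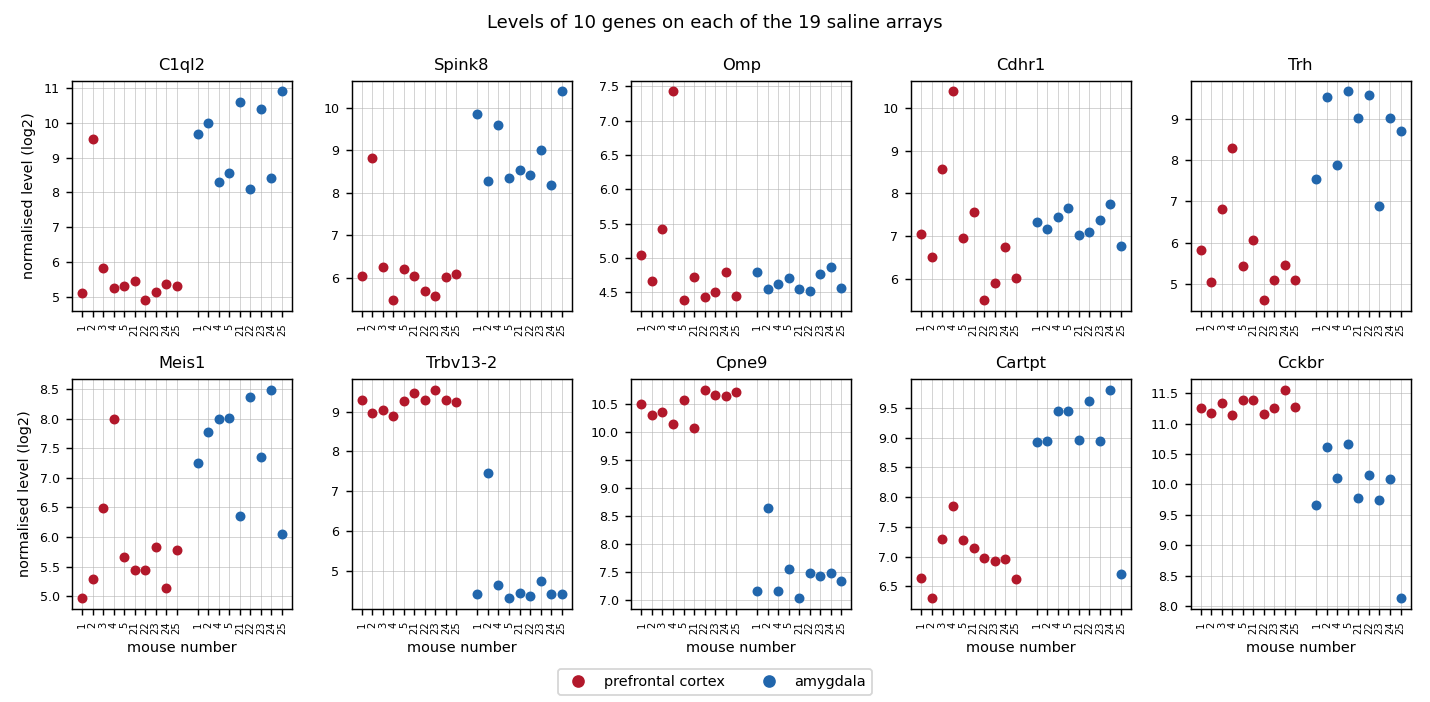
Normalised log2 level of 10 genes on each saline array, by mouse number, with the 10 prefrontal cortex arrays in red and the 9 amygdala arrays in blue. C1ql2 and Spink8 are high on the prefrontal cortex array of mouse 2, Omp, Cdhr1, Trh and Meis1 on that of mouse 4, Trbv13-2 and Cpne9 on the amygdala array of mouse 2, and Cartpt and Cckbr are low on the amygdala array of mouse 25.

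The 2 regions differed widely. Of 21759 probes above background on at least 9 of the 19 arrays, 9230 (42.4%) were called, 4594 higher in prefrontal cortex (21.1%) and 4636 lower (21.3%). Most differences were modest, with a median size of 0.37 among the called probes, and a 2-fold difference or more was called for 573 probes (2.63%), of which 281 (1.29%) read higher in prefrontal cortex and 292 (1.34%) lower. With 1 probe per gene, 5248 of 11455 genes were called (45.8%), 2602 higher (22.7%) and 2646 lower (23.1%), and these shares are the background for every list below. The lowest and highest arrays of the 2 groups did not overlap for 1284 genes (11.2%), while 362 genes (3.16%) reached that size, 1.53% higher and 1.63% lower.

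The even split into higher and lower rests on the scaling. When arrays were instead centred on their own medians, the test called 11808 probes, of which 1444 were higher (12.2%, against 49.8% after quantile normalisation), and moved the median difference over all genes to -0.26. A difference is therefore relative to the other genes of its array, and the calls of a list that depend on it are also given after median centring. Among the genes named below, the centring ended the calls, all higher in prefrontal cortex, of Ppard, Slc2a1, Bdh1, Grm8, Grm4, Fcrls, Pdyn, Syt1, Rbfox3, Zic1, Crhr1 and Gria3. It turned the signs of Slc1a2 and of the uncalled Mbp, Ppp1r1b and Rspo2, while Gad1 and Slc17a7 became called as lower. Further turned signs are given with the dependence on processing. Without the 4 arrays that stood apart, 8327 of 20932 probes were called, 7794 of them among the 9230, and 634 differed by at least 2-fold. Within mice 1 to 5 and within mice 21 to 25, whose numbers form separate runs, 5929 and 5400 probes were called.

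The genes furthest higher in prefrontal cortex were a mixed set. Trbv13-2, a variable segment of the T cell receptor beta chain, lay at 8.90 to 9.55 (median 9.29) on the prefrontal cortex arrays and 4.31 to 7.45 (median 4.43) on the amygdala arrays. Its difference was 4.43 ± 0.29 (SE, adjusted p = 9.11e-11). Since 3 of 9 amygdala arrays detected its probe, that of mouse 2 being the highest, most amygdala readings in this value were not above background, which also holds on the dimmer side for Gal, Tacr3, Pcdh8, Sostdc1, Nxph4, Isl1, Drd4, Aldh1a7, Th and Baiap3, detected on 1 to 3 arrays of that region. 9130024F11Rik, a RIKEN transcript, ranged over 8.24 to 9.32 (median 8.96) on the prefrontal cortex arrays, against 5.01 to 7.41 (median 5.502) on those of amygdala, a difference of 3.15 ± 0.26 (SE, adjusted p = 2.51e-09). For both genes the regions did not overlap. Probes detected on few arrays of the dimmer side passed the filter mainly through the brighter side. Their adjusted p values and places in the counts are therefore limited support.

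Cpne9, of the calcium-dependent phospholipid-binding copines, lay at 10.07 to 10.75 (median 10.53) on the prefrontal cortex arrays, against 7.03 to 8.65 (median 7.43) on those of amygdala, and differed by 2.99 ± 0.15 (SE, adjusted p = 4.82e-12). Scn4b, an auxiliary beta subunit of voltage-gated sodium channels, lay at 8.42 to 9.49 (median 8.91) on the prefrontal cortex arrays, against 5.34 to 8.003 (median 5.998) on those of amygdala and differed by 2.62 ± 0.30 (SE, adjusted p = 3.72e-07), although a second, dimmer probe of the gene did not pass the test. The highest amygdala reading of each was on the array of mouse 2, and neither gene overlapped between the regions.

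Another 3 of these 15 genes are known from the contractile apparatus of muscle, a trait seen after ranking and not tested as a group. Tnnc1, the troponin C of heart and slow muscle, lay at 9.57 to 10.19 (median 9.85) on the prefrontal cortex arrays, against 6.57 to 7.40 (median 7.02) on those of amygdala, a difference of 2.94 ± 0.10 (SE, adjusted p = 8.98e-15). Myl4, a myosin light chain of atrial muscle, lay at 10.60 to 11.23 (median 10.71) on the prefrontal cortex arrays, against 6.69 to 8.81 (median 8.56) on those of amygdala. Myl4 differed by 2.60 ± 0.20 (SE, adjusted p = 7.87e-10). Tcap, which caps titin at the sarcomere's Z disc, lay at 7.01 to 7.85 (median 7.52) on the prefrontal cortex arrays, against 4.62 to 5.58 (median 4.90) on those of amygdala, a difference of 2.52 ± 0.13 (SE, adjusted p = 4.82e-12). Each was higher in prefrontal cortex in 9 of 9 mice, without overlap.

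The other genes of this set were Sowahb (2.37), Hkdc1, which encodes a hexokinase-like enzyme (2.32), the zinc finger factor Ovol2 (2.23), Dkkl1 (2.19), the cytosolic sialidase Neu2 (2.15), the homeobox factor Mkx (2.11), the oxysterol-binding protein Osbpl1a (2.08) and Arhgap25 (2.07). All 8 were higher on every prefrontal cortex array than on any amygdala array. A second tested probe of Osbpl1a did not pass the test, at 0.06.

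The gene furthest lower in prefrontal cortex was Ecel1, which encodes a neuronal membrane metallopeptidase. It lay at 4.45 to 5.12 (median 4.75) on the prefrontal cortex arrays and 7.61 to 9.56 (median 8.83) on the amygdala arrays, a difference of -3.95 ± 0.18 (SE, adjusted p = 7.53e-13), or 15.5-fold lower. Dlk1, an imprinted ligand of the Notch family, lay at 4.52 to 6.06 (median 5.55) on the prefrontal cortex arrays, against 7.83 to 10.53 (median 8.72) on those of amygdala. Dlk1 differed by -3.75 ± 0.29 (SE, adjusted p = 1.50e-09). Igsf1, an immunoglobulin-type membrane protein of hypothalamus and pituitary, lay at 4.997 to 5.67 (median 5.38) on the prefrontal cortex arrays, against 7.09 to 9.48 (median 8.49) on those of amygdala, a difference of -3.12 ± 0.21 (SE, adjusted p = 2.13e-10). The groups did not overlap for any of them, and all were lower in prefrontal cortex in 9 of 9 mice.

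The pair formed by thyrotropin-releasing hormone, Trh, and its receptor, Trhr, was lower in prefrontal cortex on both sides. Trhr lay at 4.73 to 6.09 (median 5.46) on the prefrontal cortex arrays, against 7.49 to 8.90 (median 8.28) on those of amygdala, a difference of -2.89 ± 0.16 (SE, adjusted p = 1.84e-11), with no overlap. Trh lay at 4.60 to 8.29 (median 5.45) on the prefrontal cortex arrays, against 6.88 to 9.66 (median 9.03) on those of amygdala. Trh differed by -2.87 ± 0.42 (SE, adjusted p = 1.09e-05). The Trh groups overlapped through the prefrontal cortex array of mouse 4, on which the olfactory bulb genes were also high. The part of olfactory bulb tissue in this value was not tested. The Trh difference was -2.96 without the 4 arrays that stood apart. With each array left out in turn it ranged over -3.16 to -2.74, and moved most without the prefrontal cortex array of mouse 4.

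Doc2b, a calcium sensor of vesicle release, lay at 5.77 to 7.83 (median 6.40) on the prefrontal cortex arrays, against 9.40 to 10.04 (median 9.63) on those of amygdala, a difference of -3.03 ± 0.19 (SE, adjusted p = 7.16e-11). Agt, the angiotensin precursor, which astrocytes make in brain, lay at 4.24 to 5.02 (median 4.84) on the prefrontal cortex arrays, against 6.93 to 8.24 (median 7.47) on those of amygdala. Agt differed by -2.85 ± 0.14 (SE, adjusted p = 4.54e-12). Necab2, a neuronal calcium-binding protein, lay at 6.505 to 7.49 (median 6.98) on the prefrontal cortex arrays, against 9.17 to 9.92 (median 9.54) on those of amygdala, a difference of -2.47 ± 0.13 (SE, adjusted p = 4.54e-12). None of the 3 overlapped between regions.

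C1ql2 and Spink8, the hippocampal genes named above, differed by -3.72 ± 0.51 (SE, adjusted p = 3.97e-06) and -2.74 ± 0.36 (SE, adjusted p = 2.48e-06), or by -4.15 and -3.03 without the prefrontal cortex array of mouse 2. Both groups overlapped through the prefrontal cortex array of mouse 2, and C1ql2 reached 10.91 on the amygdala array with its highest value. The remaining genes of this set were the nuclear receptor Nr2f2 (-2.86), the neuropeptide Y receptor Npy2r (-2.71), the extended synaptotagmin Esyt3 (-2.54), AW551984 (-2.54) and galanin, Gal (-2.39). Of these 5, Gal alone overlapped.

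**Figure D2:**
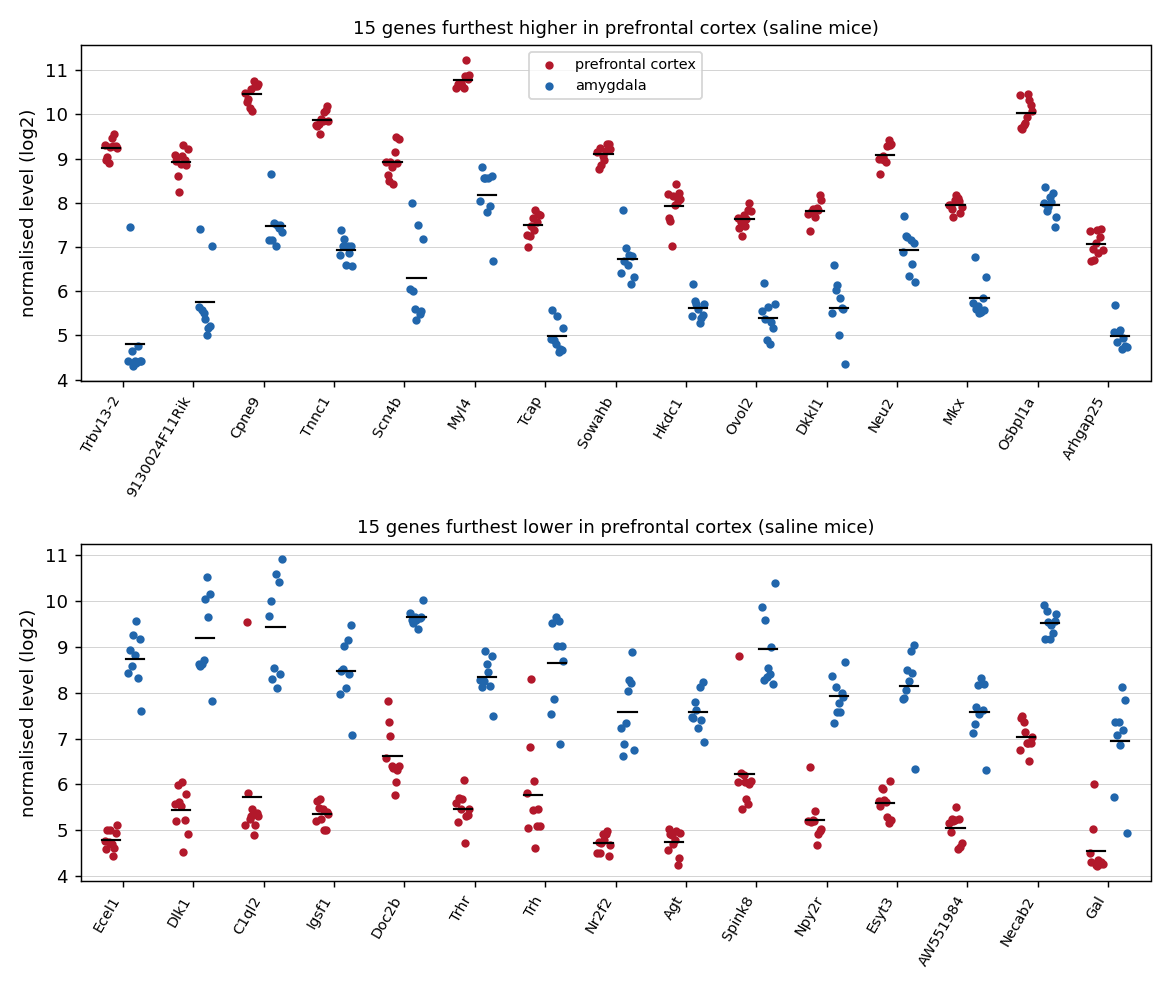
Normalised log2 level of the 15 genes furthest higher (top) and the 15 furthest lower (bottom) in prefrontal cortex, with 10 prefrontal cortex arrays in red left of 9 amygdala arrays in blue and black bars at the group means. The groups are separate for all 15 upper genes, and of the lower ones C1ql2, Trh, Spink8 and Gal overlap.

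Genes known from the upper layers of the cortex were higher in prefrontal cortex for 5 of 10 tested members and lower for 1, with a median difference of 0.50 against 0.00 over all genes (0.24 against -0.26 when arrays were centred on their medians). Lamp5, a membrane protein of upper-layer cells and some interneurons, lay at 12.15 to 12.81 (median 12.36) on the prefrontal cortex arrays, against 9.77 to 11.41 (median 10.36) on those of amygdala. Lamp5 differed by 1.95 ± 0.15 (SE, adjusted p = 1.65e-09). Mef2c, a transcription factor of neuronal maturation, lay at 11.98 to 12.83 (median 12.31) on the prefrontal cortex arrays, against 9.21 to 11.54 (median 10.86) on those of amygdala, a difference of 1.54 ± 0.21 (SE, adjusted p = 3.06e-06). The signalling protein Stard8 (1.13), the nuclear receptor Rorb (1.01), which marks layer 4, and the homeobox factor Cux2 (0.75) were also higher. Of these genes Cux2 alone overlapped between regions, while Otof, a calcium sensor of vesicle fusion, was lower with overlap (-1.47 ± 0.29 SE, adjusted p = 3.25e-04).

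Of the deep-layer list, 7 of 16 tested members were higher and 5 lower, at a median difference of 0.00. The list had 3 higher and 8 lower after median centring (median -0.20), and 6 higher and 4 lower of 15 without the 4 arrays that stood apart (median 0.22). Deptor, an inhibitor of the mTOR kinase, lay at 7.88 to 8.63 (median 8.28) on the prefrontal cortex arrays, against 5.88 to 7.05 (median 6.26) on those of amygdala. Deptor differed by 1.97 ± 0.12 (SE, adjusted p = 4.70e-11). Tbr1, the T-box factor of layer 6 and other glutamatergic neurons, lay at 9.70 to 10.15 (median 9.92) on the prefrontal cortex arrays, against 8.01 to 9.21 (median 8.62) on those of amygdala, a difference of 1.24 ± 0.11 (SE, adjusted p = 9.95e-09). In the other direction, Crym, a thyroid hormone-binding protein, lay at 10.35 to 11.27 (median 10.96) on the prefrontal cortex arrays, against 11.46 to 12.72 (median 12.40) on those of amygdala (-1.26 ± 0.17 SE, adjusted p = 4.57e-06), and Nxph4, a neurexophilin, differed by -0.92 ± 0.18 (SE, adjusted p = 2.85e-04). Deptor, Tbr1 and Crym did not overlap between the regions.

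Among genes known from the basolateral amygdala, 6 of 9 were lower in prefrontal cortex and 1 higher, at a median of -0.92. Nr2f2, the nuclear receptor COUP-TFII, lay at 4.44 to 4.97 (median 4.73) on the prefrontal cortex arrays, against 6.61 to 8.89 (median 7.33) on those of amygdala. Nr2f2 differed by -2.86 ± 0.23 (SE, adjusted p = 2.39e-09). Dcn, the matrix proteoglycan decorin, lay at 7.94 to 9.07 (median 8.34) on the prefrontal cortex arrays, against 9.64 to 12.54 (median 10.30) on those of amygdala, a difference of -2.20 ± 0.28 (SE, adjusted p = 1.78e-06). Lypd1, a modulator of nicotinic receptors, lay at 9.56 to 10.55 (median 10.25) on the prefrontal cortex arrays, against 10.76 to 12.51 (median 11.93) on those of amygdala. Lypd1 differed by -1.80 ± 0.18 (SE, adjusted p = 6.57e-08). These 3 did not overlap between the regions, whereas Grp, gastrin-releasing peptide, overlapped (-1.04 ± 0.27 SE, adjusted p = 0.00394). The member that was higher in prefrontal cortex was the homeobox factor Meis2 (0.88 ± 0.15 SE, adjusted p = 7.36e-05), and Rspo2, a Wnt agonist used as a marker of basolateral neurons, differed by 0.30 ± 0.15 (SE, adjusted p = 0.103) and did not pass the test, though it passed with the mouse as a replicate block (0.30, adjusted p = 0.0198).

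Genes of the central and medial amygdala gave the most one-sided of the regional lists in count, with 9 of 10 tested members lower in prefrontal cortex and none higher, at a median of -1.04. Without the 4 arrays that stood apart, 7 members were tested and 6 were lower, at a median of -0.55. Gal and Nts, both far lower in prefrontal cortex, were among the members no longer tested there, since the filter stayed at 9 arrays. Beside Dlk1, Nts, the precursor of neurotensin, lay at 4.28 to 4.61 (median 4.45) on the prefrontal cortex arrays, against 5.08 to 7.26 (median 6.24) on those of amygdala, a difference of -1.66 ± 0.20 (SE, adjusted p = 6.65e-07). No prefrontal cortex array detected its probe and all 9 amygdala arrays did, so that it was at least 2.78-fold lower in prefrontal cortex when set against the weakest signals above background. The probe thus passed the filter through the amygdala arrays alone, and its adjusted p and its place in the counts are no separate support. Cartpt, the precursor of the CART peptide, lay at 6.29 to 7.84 (median 6.97) on the prefrontal cortex arrays, against 6.70 to 9.81 (median 8.95) on those of amygdala (-1.98 ± 0.29 SE, adjusted p = 8.76e-06), with overlap through the amygdala array of mouse 25.

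Gal lay at 4.23 to 6.01 (median 4.30) on the prefrontal cortex arrays, against 4.93 to 8.14 (median 7.19) on those of amygdala. Gal differed by -2.39 ± 0.33 (SE, adjusted p = 4.44e-06). Its probe was detected on 2 of 10 prefrontal cortex arrays and 9 of 9 amygdala arrays. The amygdala arrays were enough for the filter, so its adjusted p and its place in the counts are little separate support. Prkcd, the protein kinase C delta that marks a class of central amygdala neurons, lay at 6.20 to 7.02 (median 6.41) on the prefrontal cortex arrays, against 6.40 to 7.73 (median 7.15) on those of amygdala, a difference of -0.56 ± 0.16 (SE, adjusted p = 0.00613), with overlap. Esr1, the estrogen receptor alpha of the medial nucleus, differed by -1.14 ± 0.17 (SE, adjusted p = 1.19e-05). The corticotropin-releasing hormone gene Crh, another marker of the central nucleus, had a probe that none of the 19 arrays detected.

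Regions that border the amygdala also had genes in the difference. Of the hypothalamic and thalamic list, 6 of 9 were lower in prefrontal cortex and 1 higher (median -0.96). Hdc, which makes histamine, lay at 4.63 to 5.74 (median 5.22) on the prefrontal cortex arrays, against 5.997 to 7.61 (median 6.85) on those of amygdala (-1.60 ± 0.19 SE, adjusted p = 7.25e-07) without overlap. Slc17a6, the vesicular glutamate transporter VGLUT2 of subcortical neurons, lay at 8.59 to 9.85 (median 9.25) on the prefrontal cortex arrays, against 9.06 to 11.65 (median 10.98) on those of amygdala (-1.52 ± 0.24 SE, adjusted p = 3.32e-05), and Calb2, calretinin, differed by -1.68 ± 0.31 (SE, adjusted p = 1.70e-04). The member that was higher was the zinc finger factor Zic1 (0.61 ± 0.16 SE, adjusted p = 0.0029). The summed linear level of the 9 tested members was 1525 to 5227 on the prefrontal cortex arrays, against 2952 to 7645 on those of amygdala, and the part of such tissue in the results was not tested.

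Of the hippocampal list, 4 of 7 were lower in prefrontal cortex and none higher (median -0.66), with the zinc finger factor Zbtb20 at -1.08 ± 0.17 (SE, adjusted p = 2.38e-05), Wfs1, the wolframin of the endoplasmic reticulum, at -0.68 ± 0.16 (SE, adjusted p = 0.00164) and the homeobox factor Prox1 at -0.62 ± 0.18 (SE, adjusted p = 0.00819). All 4 overlapped between the regions, and without the 4 arrays that stood apart 5 of 6 were lower. The summed level of the list was 1162 to 2936 on the prefrontal cortex arrays, against 2584 to 4745 on those of amygdala.

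Of striatal genes, 3 of 13 were higher and 4 lower, beside 22.7% and 23.1% of all genes. After median centring 1 was higher and 6 were lower. Drd1 and Ppp1r1b, the dopamine receptor D1 and the DARPP-32 phosphatase inhibitor of striatal projection neurons, differed by -0.08 ± 0.28 (SE, adjusted p = 0.85) and 0.11 ± 0.15 (SE, adjusted p = 0.594) and did not pass the test. Drd2, the dopamine receptor D2, was lower (-0.52 ± 0.15 SE, adjusted p = 0.00838), as were Penk, the precursor of enkephalins (-0.87 ± 0.24 SE, adjusted p = 0.00514), and Isl1, a homeobox factor (-0.78 ± 0.24 SE, adjusted p = 0.0118). Foxp1, a forkhead factor, lay at 8.52 to 9.03 (median 8.75) on the prefrontal cortex arrays, against 6.88 to 8.15 (median 7.52) on those of amygdala and was higher (1.17 ± 0.14 SE, adjusted p = 6.79e-07) without overlap, and Pdyn, the precursor of dynorphin, was higher by 0.84 ± 0.27 (SE, adjusted p = 0.0169). Of the 4 tested claustrum genes, Lxn, a carboxypeptidase inhibitor (-0.57 ± 0.06 SE, adjusted p = 2.75e-07), and Nr4a2, an orphan nuclear receptor (-0.63 ± 0.21 SE, adjusted p = 0.0182), were lower.

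Pan-neuronal genes differed by small amounts, 3 of 9 higher and 2 lower, beside 22.7% and 23.1% of all genes. After median centring 0 were higher and 4 lower. Their median was 0.03, or -0.14 when arrays were centred on their medians. Syt1, the calcium sensor of fast release (0.42), and Rbfox3, the NeuN splicing factor (0.33), were higher, while Gap43, a growth cone protein (-0.74), and Thy1, a surface glycoprotein (-0.27), were lower. Slc17a7, the vesicular glutamate transporter VGLUT1 of cortical neurons, lay at 11.53 to 11.97 (median 11.82) on the prefrontal cortex arrays, against 11.47 to 12.29 (median 11.999) on those of amygdala and did not pass the test (-0.11 ± 0.11 SE, adjusted p = 0.409).

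Of the genes of GABAergic neurons, 5 of 9 were lower in prefrontal cortex and 1 higher (median -0.42), and both without the 4 arrays that stood apart and after median centring 7 were lower and 1 higher. Gad2, which makes GABA for synaptic release, lay at 10.66 to 11.11 (median 10.82) on the prefrontal cortex arrays, against 11.06 to 12.30 (median 11.68) on those of amygdala. Gad2 differed by -0.88 ± 0.11 (SE, adjusted p = 1.76e-06). Slc32a1, the vesicular GABA transporter, lay at 11.22 to 11.62 (median 11.30) on the prefrontal cortex arrays, against 11.67 to 12.35 (median 11.90) on those of amygdala, a difference of -0.63 ± 0.09 (SE, adjusted p = 5.96e-06), without overlap. Gad1, the other GABA-making enzyme, differed by -0.25 ± 0.10 (SE, adjusted p = 0.0606) and did not pass the test, though it did so without the prefrontal cortex array of mouse 21 (-0.27) or of mouse 4 (-0.30). The homeobox factor Dlx2 was lower (-0.51 ± 0.15 SE, adjusted p = 0.00696), and the zinc finger factor Sp8 higher (0.57 ± 0.17 SE, adjusted p = 0.01), with its 2 highest values on the prefrontal cortex arrays of mice 4 and 3.

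Markers of interneurons differed in both directions. Higher in prefrontal cortex were 5 of 12: Lamp5, parvalbumin, Pvalb (1.36 ± 0.26 SE, adjusted p = 1.98e-04), vasoactive intestinal peptide, Vip (1.08 ± 0.12 SE, adjusted p = 4.34e-07), neuropeptide Y, Npy (0.87 ± 0.06 SE, adjusted p = 2.95e-10), and cholecystokinin, Cck (0.54 ± 0.07 SE, adjusted p = 1.45e-06). Vip lay at 9.78 to 10.44 (median 10.08) on the prefrontal cortex arrays, against 8.57 to 9.41 (median 9.10) on those of amygdala, and Npy at 10.70 to 11.08 (median 10.86) on the prefrontal cortex arrays, against 9.86 to 10.20 (median 10.02) on those of amygdala. Neither overlapped between the regions. Lower were 6, among them Nos1, the neuronal nitric oxide synthase, at 6.30 to 7.22 (median 7.02) on the prefrontal cortex arrays, against 8.51 to 9.10 (median 8.81) on those of amygdala (-1.99 ± 0.12 SE, adjusted p = 4.55e-11, no overlap), Calb2 and Htr3a, an ion channel receptor for serotonin (-0.72 ± 0.14 SE, adjusted p = 2.04e-04).

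Neuropeptides as a family were mostly lower in prefrontal cortex, 13 of 23 tested against 5 higher, at a median of -0.37. The background shares were 23.1% lower and 22.7% higher. Trh, Gal, Cartpt, Nts and Penk, described above, belong to the lower group. The higher ones were Vip, Npy, Cck, Pdyn and Adcyap1, the precursor of PACAP (0.92 ± 0.16 SE, adjusted p = 6.57e-05). Without the 4 arrays that stood apart, 11 of 19 tested members were lower and 5 higher, with Gal and Nts no longer tested.

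Of the peptide receptors, 6 of 16 were lower in prefrontal cortex and 2 higher (1 higher and 10 lower after median centring), at a median of -0.10. Npy2r lay at 4.67 to 6.39 (median 5.19) on the prefrontal cortex arrays, against 7.34 to 8.67 (median 7.92) on those of amygdala, a difference of -2.71 ± 0.18 (SE, adjusted p = 1.55e-10). Tacr3, the neurokinin 3 receptor, lay at 4.31 to 4.71 (median 4.44) on the prefrontal cortex arrays, against 5.55 to 6.22 (median 6.08) on those of amygdala, a difference of -1.52 ± 0.08 (SE, adjusted p = 1.00e-11), and was detected on 3 of 10 prefrontal cortex arrays and 9 of 9 amygdala arrays. Cckbr, the cholecystokinin B receptor, was the largest in the other direction, at 11.14 to 11.56 (median 11.26) on the prefrontal cortex arrays, against 8.13 to 10.67 (median 10.09) on those of amygdala (1.41 ± 0.21 SE, adjusted p = 1.66e-05). None of the 3 overlapped between the regions. For Tacr3 the amygdala arrays were enough for the filter, so its adjusted p and its place in the counts are little separate support. Crhr1, a receptor of corticotropin-releasing hormone, was also higher (0.48 ± 0.12 SE, adjusted p = 0.00212).

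**Figure D3:**
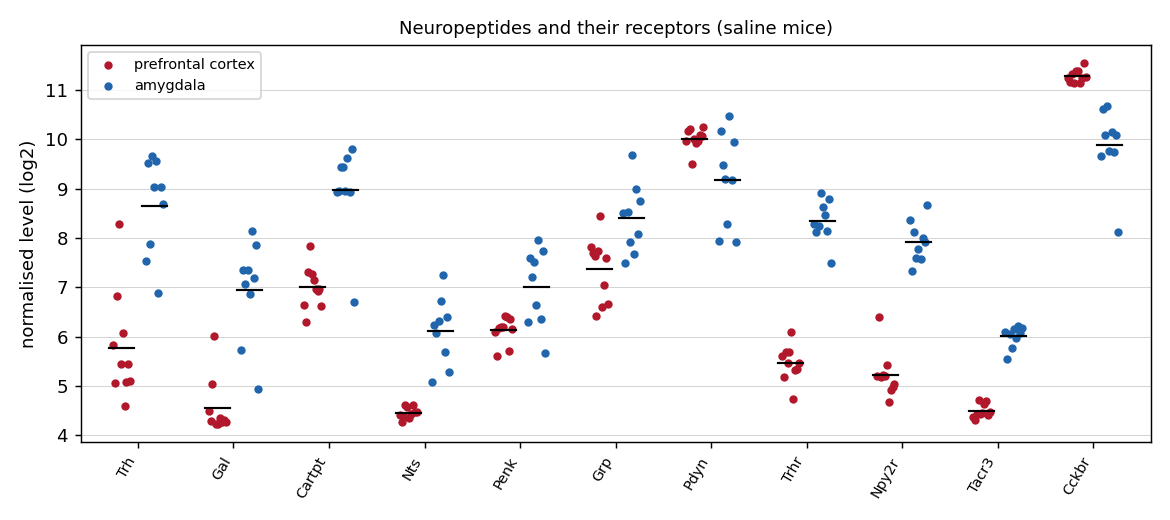
Normalised log2 level of 7 neuropeptide genes and 4 peptide receptor genes, with 10 prefrontal cortex arrays in red left of 9 amygdala arrays in blue and black bars at the group means. Trhr, Npy2r, Tacr3 and Nts are lower and Cckbr is higher in prefrontal cortex without overlap, while Trh, Gal, Cartpt, Penk, Grp and Pdyn overlap.

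Of ionotropic glutamate receptor genes, 6 of 12 were lower in prefrontal cortex and 1 higher (median -0.27), or 0 higher and 9 lower after median centring. The kainate subunits Grik1 (-0.93 ± 0.11 SE, adjusted p = 9.25e-07) and Grik5 (-0.69 ± 0.06 SE, adjusted p = 2.17e-08) and the AMPA subunit Gria1 (-0.82 ± 0.09 SE, adjusted p = 2.25e-07) were lower without overlap, and the NMDA subunit Grin3a with overlap (-0.87 ± 0.12 SE, adjusted p = 4.63e-06). The one that was higher was the AMPA subunit Gria3 (0.29 ± 0.10 SE, adjusted p = 0.0232). Of 4 metabotropic genes tested, Grm8 (0.78 ± 0.17 SE, adjusted p = 6.14e-04) and Grm4 (0.62 ± 0.13 SE, adjusted p = 6.88e-04) were higher and the other two did not pass the test, while the list had 0 higher and 1 lower after median centring.

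Of GABA receptor genes, 5 of 8 were higher in prefrontal cortex and 2 lower (median 0.39), or 3 higher and 3 lower after median centring (median 0.07). Gabrd, the delta subunit of extrasynaptic receptors, lay at 8.69 to 9.39 (median 9.13) on the prefrontal cortex arrays, against 7.38 to 8.98 (median 8.23) on those of amygdala (0.92 ± 0.15 SE, adjusted p = 2.93e-05). Gabbr2, a subunit of the GABA-B receptor (0.73 ± 0.11 SE, adjusted p = 2.38e-05), and the alpha subunit Gabra3 (0.66 ± 0.10 SE, adjusted p = 1.03e-05) were higher without overlap, and the gamma subunit Gabrg1 was lower (-0.89 ± 0.14 SE, adjusted p = 2.06e-05).

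Serotonin receptor genes were split, with 3 of 8 tested higher and 3 lower, or 1 of 7 higher and 3 lower without the 4 arrays that stood apart. Htr5b lay at 4.46 to 5.88 (median 5.02) on the prefrontal cortex arrays, against 6.21 to 7.97 (median 6.65) on those of amygdala, a difference of -1.77 ± 0.22 (SE, adjusted p = 9.62e-07), without overlap, and Htr1f, a receptor of deep cortical layers, at 6.64 to 7.43 (median 6.91) on the prefrontal cortex arrays, against 5.14 to 6.98 (median 5.88) on those of amygdala, a difference of 1.06 ± 0.17 (SE, adjusted p = 2.65e-05). Of muscarinic acetylcholine receptors, Chrm3 lay at 7.35 to 7.97 (median 7.71) on the prefrontal cortex arrays, against 5.91 to 7.08 (median 6.24) on those of amygdala (1.38 ± 0.12 SE, adjusted p = 1.14e-08, no overlap), and Chrm2 differed by 0.93 ± 0.15 (SE, adjusted p = 4.17e-05). Ache, which breaks down acetylcholine (-0.78 ± 0.08 SE, adjusted p = 1.82e-07), and the nicotinic subunit Chrnb2 (-0.43 ± 0.06 SE, adjusted p = 1.30e-05) were lower without overlap. In the dopamine and noradrenaline list, Drd4, the dopamine receptor D4, was higher by 0.53 and Drd2 lower.

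Over the opioid and cannabinoid list, 4 of 9 were higher and 3 lower (median 0.14), or 2 higher and 3 lower after median centring. Mgll, the lipase that breaks down 2-arachidonoylglycerol, lay at 10.66 to 11.01 (median 10.89) on the prefrontal cortex arrays, against 9.22 to 10.005 (median 9.56) on those of amygdala, a difference of 1.28 ± 0.09 (SE, adjusted p = 1.52e-10), without overlap. Cnr1, the cannabinoid receptor CB1, lay at 6.72 to 7.92 (median 7.59) on the prefrontal cortex arrays, against 5.85 to 7.16 (median 6.33) on those of amygdala. Cnr1 differed by 1.06 ± 0.17 (SE, adjusted p = 2.74e-05).

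Potassium channel genes were mostly higher where they passed the test, 12 of 26 against 1 lower, with a median of 0.21 that was -0.02 when arrays were centred on their medians (5 higher and 3 lower there). Kcnh1, an ether-a-go-go channel, lay at 9.17 to 9.89 (median 9.47) on the prefrontal cortex arrays, against 7.36 to 8.94 (median 8.13) on those of amygdala, a difference of 1.34 ± 0.15 (SE, adjusted p = 4.22e-07). Kcna1 (1.14 ± 0.18 SE, adjusted p = 2.45e-05) and Kcna2 (0.86 ± 0.11 SE, adjusted p = 1.52e-06), Shaker-type channels of axons, and Kcnip4, an auxiliary subunit (0.90 ± 0.09 SE, adjusted p = 9.90e-08), were also higher, all without overlap. The lower one was another auxiliary subunit, Kcnip2 (-0.61 ± 0.11 SE, adjusted p = 1.38e-04).

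Of sodium and calcium channel genes, 9 of 18 were higher and 3 lower (median 0.26), or 4 higher and 5 lower after median centring (median -0.07). Beside Scn4b, the calcium channel beta subunit Cacnb4 (0.92 ± 0.09 SE, adjusted p = 1.90e-08) and the sodium channel Scn1a (0.79 ± 0.14 SE, adjusted p = 7.36e-05) were higher without overlap, and Cacna2d1 with overlap (0.76 ± 0.18 SE, adjusted p = 0.00137). Another tested probe of Cacnb4 did not pass the test, at 0.01.

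Genes of synaptic vesicles and release gave the highest share on the upper side of any functional list of over 10 tested members, 14 of 21 higher in prefrontal cortex and 2 lower, against background shares of 22.7% and 23.1%. The median was 0.34, or 0.08 when arrays were centred on their medians, with 5 higher and 5 lower there. Stx1a, the syntaxin of the release machinery, lay at 12.42 to 12.71 (median 12.55) on the prefrontal cortex arrays, against 10.81 to 11.93 (median 11.54) on those of amygdala. Stx1a differed by 1.06 ± 0.10 (SE, adjusted p = 2.22e-08). Vamp2, its partner on vesicles (0.68 ± 0.07 SE, adjusted p = 6.72e-08), did not overlap, while Rims3 (0.74 ± 0.16 SE, adjusted p = 5.65e-04) and Rab3b (0.73 ± 0.10 SE, adjusted p = 2.53e-06), of the active zone and vesicle surface, did.

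Cell adhesion and guidance genes differed in both directions, as did genes at large (22.7% higher and 23.1% lower). Of cadherins and protocadherins, 7 of 19 were higher and 6 lower (3 higher and 8 lower after median centring). Of the 19, 6 were free of overlap, beside 11.2% of all genes. Pcdh20 lay at 8.43 to 9.72 (median 8.74) on the prefrontal cortex arrays, against 9.77 to 11.27 (median 10.61) on those of amygdala (-1.66 ± 0.20 SE, adjusted p = 9.32e-07) and Pcdh8 at 4.30 to 4.74 (median 4.45) on the prefrontal cortex arrays, against 5.77 to 6.16 (median 5.90) on those of amygdala (-1.44 ± 0.06 SE, adjusted p = 7.53e-13), both lower in prefrontal cortex. Cdh12 (1.46 ± 0.10 SE, adjusted p = 2.98e-10) and Cdh6 (1.36 ± 0.12 SE, adjusted p = 1.40e-08) were higher. All 4 were without overlap. Pcdh8 passed the filter mainly through the amygdala arrays, so its adjusted p and its place in the counts are little separate support.

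Of axon guidance genes, 11 of 38 were higher and 14 lower (7 higher and 18 lower after median centring), and 13 of the 38 did not overlap, beside 11.2% of all genes. Slit3, a secreted repellent, lay at 7.91 to 8.68 (median 8.37) on the prefrontal cortex arrays, against 9.25 to 10.30 (median 9.58) on those of amygdala (-1.30 ± 0.13 SE, adjusted p = 4.10e-08), and the netrin receptor Unc5a at 5.77 to 6.41 (median 6.07) on the prefrontal cortex arrays, against 6.85 to 7.67 (median 7.12) on those of amygdala (-1.06 ± 0.11 SE, adjusted p = 1.29e-07). Higher were the membrane-anchored semaphorin Sema7a, at 9.15 to 10.01 (median 9.67) on the prefrontal cortex arrays, against 7.76 to 9.13 (median 8.39) on those of amygdala (1.23 ± 0.16 SE, adjusted p = 2.98e-06), and the Eph receptor Ephb6 (1.09 ± 0.13 SE, adjusted p = 5.76e-07). The regions were separate for each of these genes.

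Forebrain patterning factors differed in both directions, 7 of 22 higher and 8 lower, beside 22.7% and 23.1% of all genes. After median centring 5 were higher and 12 lower. Beside Nr2f2 and Tbr1, Tshz3, a teashirt zinc finger factor, lay at 10.06 to 10.47 (median 10.29) on the prefrontal cortex arrays, against 8.16 to 9.39 (median 9.01) on those of amygdala, a difference of 1.37 ± 0.11 (SE, adjusted p = 3.98e-09), without overlap. Meis1, a homeobox factor, lay at 4.96 to 8.001 (median 5.56) on the prefrontal cortex arrays, against 6.05 to 8.49 (median 7.78) on those of amygdala, a difference of -1.71 ± 0.35 (SE, adjusted p = 4.55e-04), and its overlap came from the prefrontal cortex arrays of mice 4 and 3, which read 8.001 and 6.49, while the other 8 lay between 4.96 and 5.82.

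The receptors that the drugs of the series act on were measured at rest here. Pparg lay at 6.04 to 7.002 (median 6.79) on the prefrontal cortex arrays, against 4.81 to 5.63 (median 5.06) on those of amygdala, a difference of 1.58 ± 0.11 (SE, adjusted p = 4.55e-10), or 2.99-fold. Ppard lay at 8.63 to 9.11 (median 8.88) on the prefrontal cortex arrays, against 8.22 to 8.59 (median 8.39) on those of amygdala, a difference of 0.50 ± 0.07 (SE, adjusted p = 3.97e-06). Both were higher on every prefrontal cortex array than on any amygdala array. None of the 19 brain arrays detected the probe of Ppara, which all 10 saline liver arrays did. Rxrg, a retinoid X receptor that pairs with PPARs, lay at 5.07 to 6.55 (median 5.59) on the prefrontal cortex arrays, against 5.97 to 7.74 (median 7.11) on those of amygdala and was lower (-1.27 ± 0.20 SE, adjusted p = 2.49e-05). Over this list, 4 of 11 were higher and 1 lower, at a median of 0.23, or 1 higher and 3 lower after median centring (median -0.08).

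Genes of fatty acid oxidation, which PPARs are known to control in liver, gave 3 of 21 higher and 6 lower, none by 2-fold. After median centring 1 was higher and 12 were lower. Background shares were 22.7% higher and 23.1% lower. Decr1, a reductase for unsaturated fatty acids (0.46 ± 0.08 SE, adjusted p = 6.52e-05), and Bdh1, which interconverts ketone bodies (0.42 ± 0.08 SE, adjusted p = 3.23e-04), were higher, and the thioesterase Acot1 was lower (-0.42 ± 0.09 SE, adjusted p = 0.00102). Of oxidative phosphorylation genes, 3 of 23 were higher, among them the succinate dehydrogenase subunit Sdhc (0.64 ± 0.07 SE, adjusted p = 1.53e-07), and 6 lower, or 3 and 3 without the 4 arrays that stood apart and 1 higher and 17 lower after median centring. Of ribosomal protein genes, 2 of 18 were higher and 4 lower (0 higher and 13 lower after median centring), with Rplp2 the largest (-0.48 ± 0.07 SE, adjusted p = 5.44e-06). In the alcohol and aldehyde list, catalase, Cat, was lower (-0.33 ± 0.10 SE, adjusted p = 0.013) and Aldh1a7 higher (0.42 ± 0.09 SE, adjusted p = 9.59e-04) among 7 tested, with 1 higher and 5 lower after median centring.

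Of the immediate early genes, which neuronal activity is known to induce, 5 of 17 were higher in prefrontal cortex and 2 lower (median 0.38). There were 4 higher and 6 lower after median centring (median 0.06), and 6 higher and 1 lower without the 4 arrays that stood apart (median 0.67). Egr1 lay at 12.22 to 12.96 (median 12.67) on the prefrontal cortex arrays, against 11.47 to 12.34 (median 11.82) on those of amygdala. Egr1 differed by 0.80 ± 0.11 (SE, adjusted p = 7.79e-06). Homer1, a postsynaptic scaffold protein, lay at 10.97 to 11.43 (median 11.19) on the prefrontal cortex arrays, against 10.24 to 10.70 (median 10.41) on those of amygdala, a difference of 0.72 ± 0.07 (SE, adjusted p = 3.26e-08), without overlap. The phosphatase Dusp1 (0.83 ± 0.22 SE, adjusted p = 0.00366) and the zinc finger factor Egr3 (0.66 ± 0.11 SE, adjusted p = 3.11e-05) were higher with overlap.

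Markers of glia and vessels moved with the regions as follows. Of the astrocyte genes, 5 of 14 were lower in prefrontal cortex and 1, the glutamate transporter Slc1a2 (0.21 ± 0.06 SE, adjusted p = 0.0135), was higher, or 0 higher and 10 lower after median centring. Gfap, the filament protein of fibrous astrocytes, lay at 7.68 to 9.31 (median 8.16) on the prefrontal cortex arrays, against 10.18 to 10.90 (median 10.40) on those of amygdala, a difference of -2.25 ± 0.16 (SE, adjusted p = 5.29e-10), without overlap, and it was highest in prefrontal cortex on the array of mouse 4. The gap junction protein Gja1 (-0.23 ± 0.06 SE, adjusted p = 0.00388) and the factor Sox9 (-0.25 ± 0.08 SE, adjusted p = 0.0122) differed far less. The summed level of the list was 25306 to 29641 on the prefrontal cortex arrays, against 28492 to 34334 on those of amygdala.

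Of myelin and oligodendrocyte genes, none of 13 was higher and 3 were lower, namely lineage factors such as Sox10 (-0.33 ± 0.09 SE, adjusted p = 0.00384), although the median of the list was 0.14. Without the 4 arrays that stood apart, 3 of 12 were higher and 2 lower. Mbp, myelin basic protein, lay at 13.32 to 13.95 (median 13.66) on the prefrontal cortex arrays, against 13.03 to 13.87 (median 13.34) on those of amygdala and did not pass the test (0.23 ± 0.11 SE, adjusted p = 0.105), and its 5 tested probes disagreed in direction. It passed without the 4 arrays that stood apart, at 0.29 (adjusted p = 0.0454). Of precursor genes, 3 of 7 were lower (0 higher and 7 lower after median centring), with the growth factor receptor Pdgfra at -0.57 ± 0.09 (SE, adjusted p = 3.80e-05) and the receptor Gpr17 at -0.50 ± 0.10 (SE, adjusted p = 2.78e-04).

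Microglial genes were higher in prefrontal cortex for 5 of 12 and lower for none, at a median of 0.19 that was -0.11 when arrays were centred on their medians, with 1 higher and 2 lower there. Aif1, the calcium-binding protein Iba1, lay at 7.07 to 7.33 (median 7.23) on the prefrontal cortex arrays, against 6.26 to 6.74 (median 6.62) on those of amygdala, a difference of 0.65 ± 0.07 (SE, adjusted p = 1.09e-07), without overlap. Fcrls differed by 0.49 ± 0.08 (SE, adjusted p = 1.98e-05). The summed level of the list was 3377 to 4128 on the prefrontal cortex arrays, against 2977 to 3506 on those of amygdala.

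Endothelial genes were higher for 5 of 10 and lower for none (median 0.18), or 2 higher and 3 lower after median centring (median -0.05). Esam, an adhesion molecule of vessels (0.67 ± 0.07 SE, adjusted p = 8.77e-08), the tight junction protein Cldn5 (0.65 ± 0.10 SE, adjusted p = 1.12e-05) and the glucose transporter Slc2a1 (0.46 ± 0.07 SE, adjusted p = 2.96e-05) did not overlap. Of mural cell genes, 4 of 8 were higher and none lower (median 0.24), or 3 higher and 3 lower after median centring (median -0.00416), with Rgs5, a pericyte regulator of G protein signalling, at 6.86 to 7.39 (median 7.04) on the prefrontal cortex arrays, against 5.83 to 6.71 (median 6.38) on those of amygdala (0.76 ± 0.10 SE, adjusted p = 4.06e-06). Hemoglobin genes were higher too, Hbb-bt by 0.69 ± 0.17 (SE, adjusted p = 0.00204), though the beta-globin copies are near identical and their probes cannot be told apart with certainty.

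Genes of the meninges and ventricles were mostly called in opposite directions in the main setting. For the meningeal list this depended on the scaling and on the arrays in the fit. Of the meningeal list, 5 of 9 were higher and Dcn was lower (1 higher and 3 lower after median centring). When the 4 arrays that stood apart were left out, 1 was higher and 1 lower. Of choroid plexus genes, 3 of 5 were lower in prefrontal cortex, with Sostdc1, a secreted antagonist of bone morphogenetic proteins, at 4.28 to 5.29 (median 4.56) on the prefrontal cortex arrays, against 5.78 to 6.65 (median 6.17) on those of amygdala (-1.53 ± 0.13 SE, adjusted p = 3.98e-09). Ttr, transthyretin, the defining product of the plexus, lay at 6.29 to 12.03 (median 8.09) on the prefrontal cortex arrays, against 8.53 to 12.75 (median 9.24) on those of amygdala and did not pass the test (-0.82 ± 0.68 SE, adjusted p = 0.35). The summed level of the plexus list was 174 to 4404 on the prefrontal cortex arrays, against 679 to 7359 on those of amygdala. Of ependymal genes, 3 of 5 were lower, with the tektin of cilia Tekt1 at -1.14 ± 0.13 (SE, adjusted p = 5.20e-07). The part of these cells in the other differences was not tested.

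Innate immune genes were 5 of 10 higher and 2 lower (median 0.18), or 0 higher and 4 lower after median centring (median -0.05). The alarmin Il33 lay at 8.20 to 8.56 (median 8.37) on the prefrontal cortex arrays, against 8.62 to 9.33 (median 8.98) on those of amygdala and was lower (-0.63 ± 0.08 SE, adjusted p = 1.80e-06) without overlap. The complement component C4b was lower as well (-0.65 ± 0.13 SE, adjusted p = 3.55e-04).

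**Figure D4:**
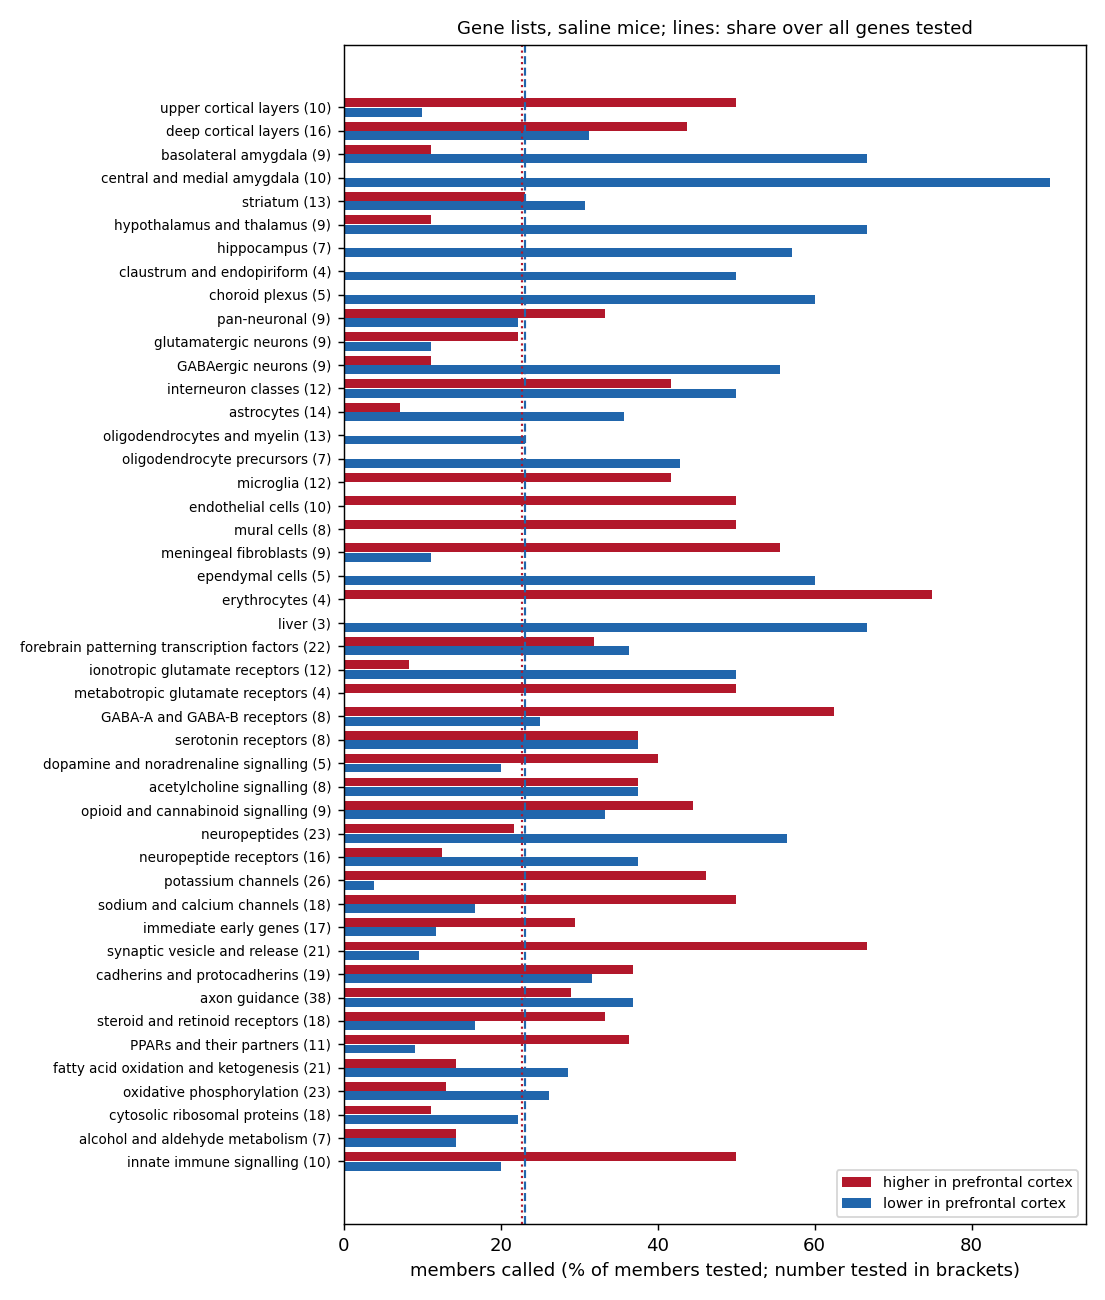
Share of the tested members of each gene list that were called higher (red, upper bar) or lower (blue, lower bar) in prefrontal cortex, in percent, with the number tested in brackets and the shares over all 11455 genes as lines at 22.7% and 23.1%. Central and medial amygdala genes reach 9 of 10 on the lower side, and synaptic vesicle genes 14 of 21 on the higher side, both after quantile normalisation.

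The same contrast in the agonist-treated mice, which share no array with the saline comparison, called 14655 of 21759 probes (67.4%), 7421 higher in prefrontal cortex and 7234 lower. With 28 arrays per region it had more samples than the saline comparison. Its values came from the fit to all 75 brain arrays, on the probes that passed the filter in the saline arrays. Its calls were therefore not fully independent of the saline arrays. Of the 9230 probes called under saline, 9174 had the same direction there, 8724 were called in it, and 4 were called in the opposite one. Of the 573 with at least 2-fold under saline, 572 were called in the same direction and 489 again reached 2-fold.

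Single genes kept similar sizes. In agonist-treated mice Trbv13-2 differed by 4.61 (saline 4.43), Ecel1 by -4.42 (saline -3.95), Tnnc1 by 2.92 (saline 2.94) and Pparg by 1.69 (saline 1.58). Grp, called lower under saline at -1.04, differed by -0.30 in agonist-treated mice and did not pass the test there, while Ttr, which had not passed under saline, was called lower at -1.99.

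A test of whether the regional difference itself changed with a drug called 144 probes for fenofibrate (0.662%), none for tesaglitazar (0%) and none for bezafibrate (0%), while 3540, 902 and 743 probes had an unadjusted p under 0.05. With the mouse as a replicate block the 144 became 1, and with arrays centred on their medians 0. Among the genes named here, 2 passed for fenofibrate. Dcn differed by -0.71 under fenofibrate and -2.20 under saline (interaction 1.48, adjusted p = 0.0376, and 0.128 with the replicate block). AW551984 differed by -3.47 under fenofibrate and -2.54 under saline (interaction -0.91, adjusted p = 0.0467, and 0.137 with the replicate block).

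**Figure D5:**
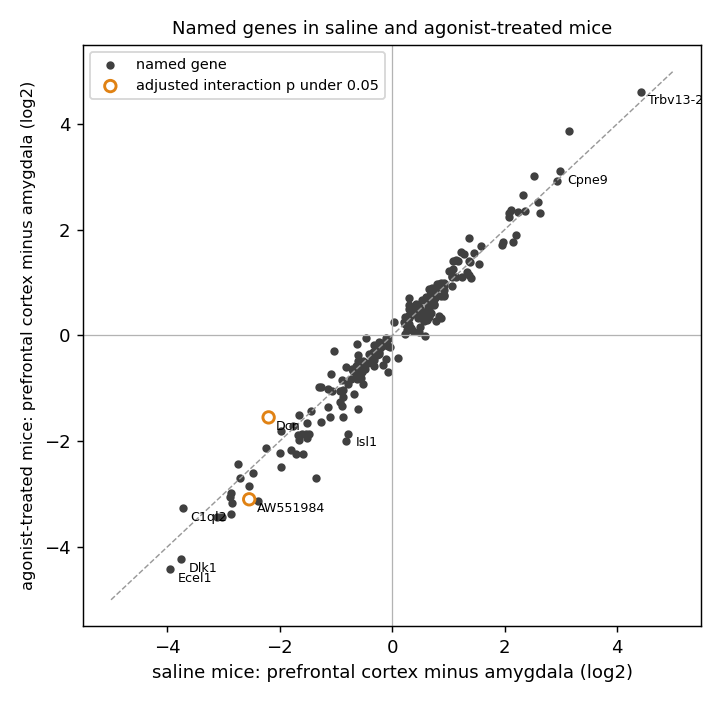
Difference between prefrontal cortex and amygdala (log2) of the named genes in agonist-treated mice (vertical axis) and in saline mice (horizontal axis), with the line of equality dashed. Orange rings mark the 2 genes that passed the interaction test for fenofibrate, though neither did with the mouse as a replicate block. Points for Trbv13-2 (4.61 and 4.43) and Ecel1 (-4.42 and -3.95) mark the 2 ends.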

How the data were processed

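Illumina bead arrays measured the RNA of whole tissue pieces from saline mice, 10 of prefrontal cortex and 9 of amygdala. The authors deposited a table of raw bead intensity and a detection p-value for each probe and array, per the file headers. Background correction from the detection p-values (offset 16), joint quantile normalisation of the 19 arrays and the log2 step were done here. The authors also deposited log2 values, which the submitters' processing notes link to lumi and which had a common median within each region (7.29 in prefrontal cortex, 7.37 in amygdala); they serve as an alternative, while the sources used here do not give their further processing. Of 120 array columns, 8 matched no sample and were not used.

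Probes with a detection p-value under 0.05 on at least 9 of the 19 arrays were tested with limma 3.58.1 (R 4.3.3), with lmFit, eBayes and Benjamini-Hochberg adjustment over all 21759, and called at an adjusted p under 0.05. Gene names came from the platform annotation, in which 34885 of 45281 probes had 1 symbol, 18 had several and 10378 had none. Each gene is represented by its brightest tested probe. Bead intensity limits precision, and a probe near background has a compressed difference. The agonist-treated contrast and the region by drug interaction came from 1 fit to 75 brain arrays.

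The genes named are the 15 furthest in each direction, up to 4 members of each of 46 lists with the furthest calls first, and a fixed set of region, receptor and cell markers. The comparison, its lists and its rules were chosen with earlier results of these data known. Vip, Npy, Cck, Kcnip2, Crhr1, Gria3, Slc1a2, Adcyap1, Baiap3, Omp, Cdhr1, Doc2g, Th, Scgn and Krt2 were chosen after their values were seen. A bound written "at least" sets the brighter region's mean against the weakest signals above background in the other.

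Equal title numbers were read as the same mouse, from the labels. Over the 9 pairs, the median correlation of deviations from the region means was 0.115 for the same mouse (range -0.192 to 0.464) and -0.0121 for different mice. Alternatives changed the background correction, the scaling, the filter, the eBayes settings, array weights, the mouse and numbering blocks, the arrays in the fit and each array in turn. The scripts were tested on simulated data.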

Additional observations from a re-analysis of the deposited data

Results flagged for a closer look

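Within each region, a level was singled out where the highest or lowest array lay far from its nearest neighbour relative to the whole range of the group (Dixon's limit). Of 426 groups, made of 212 genes and the share of probes above background in each region, 44 held such an array, and chance alone gives about 1 in 20. The genes include Omp, Cdhr1, Doc2g, Th and Scgn, which were chosen because arrays stood apart in them, so that the count cannot be set against chance. Values in brackets are normalised log2 levels, first of the array that stood apart and then the range of the others in its group.

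Among the prefrontal cortex arrays, that of mouse 2 was high in Acadl (7.13, others 6.35 to 6.67), C1ql2 (9.54, others 4.89 to 5.82), Kcnip2 (7.06, others 6.51 to 6.79), Npy2r (6.39, others 4.67 to 5.42), Prox1 (6.88, others 5.57 to 6.15) and Spink8 (8.81, others 5.47 to 6.25). On the array of mouse 4, high levels were found for C4b (7.20, others 5.90 to 6.39), Doc2g (7.75, others 4.24 to 6.09), Gal (6.01, others 4.23 to 5.03), Gfap (9.31, others 7.68 to 8.44), Meis1 (8.001, others 4.96 to 6.49), Omp (7.43, others 4.39 to 5.42) and Scgn (7.47, others 4.43 to 5.74), and low ones for Pdyn (9.51, others 9.92 to 10.24). Mouse 3 read high in Isl1 (5.28, others 4.18 to 4.71).

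Other prefrontal cortex arrays stood apart in single genes. Mouse 5 read low in Kcnj8 (4.73, others 5.07 to 5.38). Mouse 21 read high in Cat (7.38, others 6.51 to 6.84). Mouse 21 read low in Hbb-bt (11.84, others 12.56 to 13.11). Mouse 23 read high in Myl4 (11.23, others 10.60 to 10.89) and Sox2 (6.08, others 5.59 to 5.82). Mouse 24 read high in Ndufv1 (12.58, others 12.11 to 12.35) and Sdhc (10.91, others 10.35 to 10.61). Mouse 24 read low in Slco1a4 (6.70, others 7.18 to 7.63). Mouse 25 read low in Cnr1 (6.72, others 7.33 to 7.92). Mouse 24 also had the smallest share of probes above background, 44%, against 46.4 to 48.8% on the others.

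Among the amygdala arrays, that of mouse 2 was high in Arhgap25 (5.69, others 4.69 to 5.12), Cpne9 (8.65, others 7.03 to 7.55), Sowahb (7.84, others 6.16 to 6.99) and Trbv13-2 (7.45, others 4.31 to 4.76), all of them genes of prefrontal cortex in this comparison. That of mouse 25 was low in Calb2 (9.69, others 10.59 to 11.25), Cartpt (6.70, others 8.93 to 9.81), Cckbr (8.13, others 9.66 to 10.67), Esyt3 (6.35, others 7.86 to 9.04), Gabra3 (6.10, others 6.56 to 6.97), Grin3a (10.24, others 10.87 to 11.45), Grm8 (5.70, others 6.64 to 7.49), Lypd1 (10.76, others 11.65 to 12.51), Mef2c (9.21, others 10.62 to 11.54), Myl4 (6.69, others 7.78 to 8.81) and Otof (5.24, others 7.41 to 8.40), and high in Scgn (5.87, others 4.79 to 5.24). Mouse 21 read high in Nr4a2 (7.86, others 5.79 to 6.82), mouse 24 in Ttr (12.75, others 8.53 to 10.16), and that of mouse 23 was low in Trem2 (6.97, others 7.27 to 7.44).

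For fenofibrate, 2 genes passed the interaction test in the main setting. Dcn had an adjusted p of 0.0376, which became 0.128 with the replicate block, 0.0617 with arrays centred on their medians and 0.0641 without the detection filter. AW551984 had an adjusted p of 0.0467, which became 0.137, 0.181 and 0.0798 under the same settings.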

How the results depend on the processing

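Leaving out each array in turn called 8668 to 9261 probes, and 2.56 to 2.83% of tested probes by at least 2-fold. No background correction gave 9074 called and 0.786% by at least 2-fold, against 2.63% with it. The authors' deposited values, which had a common median within each region, gave 17567 called, 1057 higher in prefrontal cortex and 16510 lower, and 0.685% by at least 2-fold. Within mice 1 to 5 there were 5929 and within mice 21 to 25 there were 5400, with fewer arrays. The mouse as a replicate block gave 9475, or 10027 as a random effect; among the 212 genes named by the rules it changed the calls of Aldh3a2 (-0.21), Akr1a1 (-0.15), Emx1 (0.28), Mog (0.45), Rspo2 (0.30) and Th (0.50), and no others. The other settings called 7394 to 11808 under saline. In agonist-treated mice 14550 to 16682 probes were called over the settings. The 144 interaction calls became 0 with arrays centred on their medians, 47 without the detection filter and 1 with the replicate block, and rose in number without background correction. The share above background differed by -1.68 percentage points, and by -1.84 at a detection p of 0.01. The cause of these shifts was not tested.

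Of the 212 genes, 190 were called. Signs turned as follows, Kcnj8 under the authors' values being the only gene called with both signs. With arrays centred on their medians the differences were -0.0286 for Rxrb, -0.12 for Rplp0, -0.0643 for Maob, -0.26 for Grm5, -0.0234 for Tmem119, -0.0406 for Trem2, -0.0199 for Mbp, -0.20 for Ppp1r1b, -0.0263 for Rspo2 and -0.0925 for Slc1a2. With the authors' values they were -0.0148 for Aldh1a7, -0.0523 for Ntng2, -0.0781 for Rplp0, -0.00347 for Drd4, -0.0427 for Maob, -0.0107 for Slco1a4, -0.0159 for Alas2, -0.0182 for Decr1, -0.0515 for Emx1, -0.0201 for H2-K1, -0.038 for Tlr2, -0.20 for Grm5, -0.0331 for Tmem119, -0.0318 for Trem2, -0.0164 for Abcc9, -0.0214 for Des, -0.0594 for Kcnj8, -0.0211 for Mbp, -0.15 for Ppp1r1b, -0.0368 for Rspo2, -0.0478 for Slc1a2 and -0.00183 for Omp. With no background correction they were 0.0207 for Cdhr1 and 0.0177 for Scgn. Within mice 1 to 5 they were 0.00642 for Drd1, 0.0377 for Rarres2, -0.10 for Ppp1r1b, 0.49 for Cdhr1 and 0.45 for Scgn. Within mice 21 to 25 they were 0.0221 for Gnb4, -0.00661 for Grm5, 0.0301 for Slc17a7 and -0.0699 for Omp. The value was -0.0178 for Grm5 with array weights and -0.0235 for Grm5 without the 4 arrays that stood apart, an alternative chosen after seeing the data. Leaving out 1 array at a time moved Cdhr1 over -0.54 to 0.00878, Drd1 over -0.32 to 0.0654, Gnb4 over -0.12 to 0.0384 and Grm5 over -0.044 to 0.12. Calls were lost on leaving out some array for Atp5a1, Cox7a2, Emx1, Htr1d, Kcnj8, Olig2, Rplp0, Sox2 and Th.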

Other observations

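The largest difference of any probe belonged to one without a gene symbol, ILMN_2417926, at 10.95 to 11.53 on the prefrontal cortex arrays, against 5.57 to 9.53 on those of amygdala, a difference of 4.88.

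Some genes read differently by probe. Of 1453 genes with several called probes, 1272 had called probes of 1 sign only. For Tsr3, a ribosome biogenesis gene, the brightest probe was higher in prefrontal cortex by 0.28, while ILMN_2435996 and ILMN_2480021 were lower, with differences of -3.62 and -3.41, each without overlap. Baiap3, which lies beside Tsr3 and encodes a protein of vesicle exocytosis, was lower as well (-1.58 ± 0.24 SE, adjusted p = 1.52e-05), with overlap.

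Of the 21759 tested probes, 7 were detected on every prefrontal cortex array and no amygdala array, and 30 the other way round. The share above background was larger on the amygdala arrays (mean 48.99% against 47.3%). The rule also asked for all 9 arrays there and all 10 in prefrontal cortex. The 2 counts therefore cannot be set against each other, and the part of these limits was not tested. In prefrontal cortex these included a probe of Ovol2 (at least 2.47-fold higher) and Plau, the urokinase (at least 1.47-fold higher). In amygdala they included Krt2, a keratin of skin (at least 3.23-fold lower in prefrontal cortex), and Fndc9 (at least 2.53-fold lower).

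The probe of Trbv13-2 was also above background on 9 of 10 saline liver arrays. Fibcd1, a receptor for acetylated sugars, varied most among the amygdala arrays (SD 1.80), and Ttr most among the prefrontal cortex arrays (SD 1.95). Fibcd1 read 7.40 to 7.97 on the amygdala arrays of mice 5, 22 and 24, and 9.27 to 12.25 on the other amygdala arrays. Among the prefrontal cortex arrays it was highest for mouse 2, at 9.95. The reason for this spread was not tested.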
